A study of Homo sapiens with 6 samples.

Results

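The cytosolic ribosomal protein genes are the genes for the proteins of the cytoplasmic ribosome, 82 of the 36328 gene names on the arrays. They were chosen by name alone: RPL or RPS with a number and an optional A, L or X, together with RPLP0, RPLP1, RPLP2 and RPSA. S6 kinases, pseudogenes, mitochondrial ribosomal proteins and fusion genes such as FAU fall outside that rule. The large subunit was represented by 50 genes with 107 probes and the small subunit by 32 genes with 75 probes. In all, 182 probes were described.

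The RNA came from MOLT-4, a cell line established from a human T-cell acute lymphoblastic leukaemia. Mock cells carried the empty vector and the other cells were transfected with NUDT16, which encodes an enzyme that removes the 5′ cap from RNA. From 20 μg of total RNA per sample, transcripts bearing a trimethylguanosine or 7-methylguanosine cap (m3G/m7G) were immunoprecipitated, and the eluate was labelled with Cy3 and hybridised to a 1-colour Agilent array. Each group held 3 arrays, numbered 1 to 3. The labels do not say whether the replicates were separate cultures or for how long cells were transfected, so p-values measure only the spread between these samples. Input RNA was not analysed here, so RNA abundance and capping cannot be told apart in the eluate signal, nor can fewer cells and less RNA per cell.

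Ribosomal protein messenger RNAs are among the most abundant capped transcripts of a growing cell. Most begin with a C at the cap followed by a run of pyrimidines, the terminal oligopyrimidine (TOP) motif, through which growth signals acting by way of mTOR and the cap-binding protein LARP1 set their translation. Their proteins are needed in matched amounts, and unassembled RPL5 and RPL11 bind MDM2 together with 5S ribosomal RNA. Their processed pseudogenes are numerous, which complicates any probe for them.

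The annotated starts of a few members are shown because the start carries the cap that the antibody captures and that NUDT16 removes. Each window holds 15 bases before the RefSeq start and 15 from it on (GRCh38.p14, 5′ to 3′ on the gene's strand). Capitals mark the uninterrupted pyrimidines from the start base onward. The first 6 open with the TOP motif, and RPL36AL, RPS27L and RPL10L, paralogues of RPL36A, RPS27 and RPL10, do not.
RPS14: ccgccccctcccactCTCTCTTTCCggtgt
RPSA: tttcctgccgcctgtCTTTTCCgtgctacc
RPS19: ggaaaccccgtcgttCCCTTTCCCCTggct
RPS6: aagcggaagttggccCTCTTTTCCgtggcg
RPL13A: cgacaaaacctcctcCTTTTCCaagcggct
RPL22: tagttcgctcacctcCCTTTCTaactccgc
RPL36AL: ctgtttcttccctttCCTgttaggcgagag
RPS27L: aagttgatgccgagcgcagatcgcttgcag
RPL10L: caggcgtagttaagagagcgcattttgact
The RPS14 window is chr5:150449725-150449754 on the minus strand, the RPSA window chr3:39406705-39406734 on the plus strand and the RPL22 window chr1:6199581-6199610 on the minus strand.

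A start with C followed by 4 more pyrimidines (any of C or T) was found at 46 of the 80 annotated starts of the members (57.5%), against 1429 of 35116 starts in the whole table (4.07%). By gene, 46 of the 65 members in the table had such a start (70.8%). The motif was read on the gene's strand only and at the annotated base only. RPL4 shows why an absent match says little, since its annotated window, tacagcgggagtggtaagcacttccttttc, has its long pyrimidine run a few bases downstream of the listed start.

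Signals are given as levels: log2 of the background-corrected intensity, minus the 75th percentile of the same array over the probes detected on all 6 arrays. A probe is detected where it lies well above background. Levels are compared between arrays within a probe, since probes differ in brightness. A probe was tested if 1 group or both detected it on all 3 of its arrays, which left 17765 of 50586.

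Detection was uneven across arrays. The share of spots well above background was 39.3% to 51.1% in the mock group, 42.3% and 52.0% on NUDT16 replicates 1 and 3, and 14.6% on NUDT16 replicate 2. The probes annotated to NUDT16 itself were not well above background on any array, so they check no label. The 1 probe of its pseudogene NUDT16P1 was not well above background in any mock array and was detected on all 3 NUDT16 arrays, where its levels were -2.50, -3.27 and -2.14. Among T-lineage markers, 14 of 17 were detected throughout the mock group and 12 throughout the NUDT16 group. Myeloid markers were detected on neither full group (0 of 4), and among B-cell and epithelial markers CD79A, KRT8 and KRT18 were detected on every mock array.

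Ribosomal protein transcripts were well represented in the cap immunoprecipitate of both groups. Of the 182 probes, 160 were detected on all 6 arrays (87.9%), against 13.0% of all probes, and 3 were detected on none. None was saturated. On the array that detected least, NUDT16 replicate 2, 160 member probes were still detected, against 172 to 178 on the mock arrays. A total of 172 probes of 79 genes passed the filter, 100 for the large and 72 for the small subunit. Of the 172, 160 passed in both groups and 12 passed through the mock group alone, none through the NUDT16 group alone. A probe that passes through mock alone is favoured to read lower with NUDT16, and its value on an array at background is no measured level, so the summaries below use the 160 where they can. The genes without a tested probe were RPL27A, RPL3L and RPL39L.

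No ribosomal protein probe differed between NUDT16 and mock beyond the spread between arrays. Of the 17765 probes tested with limma (Benjamini-Hochberg adjusted p under 0.05), 1 was called (0.00563%), the NUDT16P1 probe, which was higher with NUDT16 (adjusted p = 0.00155). Of the 172 member probes 0 were called, and 0 reached an unadjusted p under 0.05, against 8 of all probes. Their adjusted p was 0.999 throughout. The standard error of a difference had a median of 0.61 on the log2 scale, so differences of the size seen here were not detectable in this fit, which ignores the pairing. Standard errors given below after ± come from the same fit. With the replicate number as a block, 1 of all probes was again called (0.00563%) and 0 of the members. There 4 member probes, against 1734 of all, had an unadjusted p under 0.05, and the lowest adjusted p of a member in limma was 0.467.

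Among the 172 probes, the median log2 difference, NUDT16 minus mock, was 0.17 for the small subunit and -0.03 for the large. These values move with the normalization: the small subunit gave 0.05 after quantile normalization and -0.02 in the authors' deposited table, where the large gave -0.10 and -0.13. Shifting each array by its median moved every difference alike by -0.68, to -0.51 and -0.71 for the subunits. By array, the median level of the 72 small subunit probes came to 4.03, 4.57 and 3.87 in mock and 4.06, 4.67 and 3.98 with NUDT16. That of the 100 large subunit probes was 3.48, 4.11 and 3.40 in mock and 3.51, 3.74 and 3.50 with NUDT16. In both subunits the groups' medians overlapped, and replicate 2 was the highest of its group. The pattern by replicate number is plain in the plot of levels by array.

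**Figure D1:**
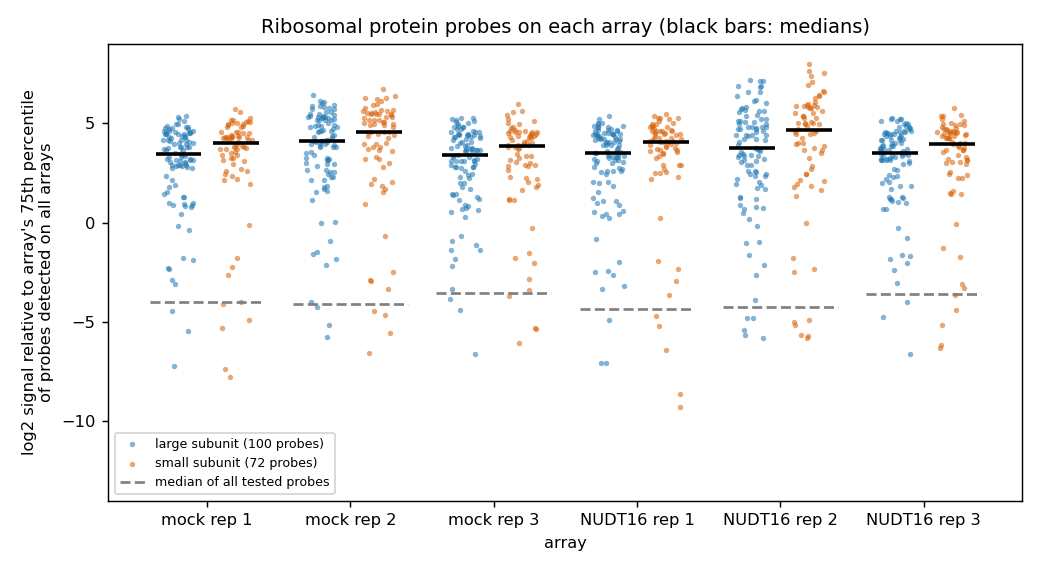
Levels of the tested ribosomal protein probes on each of the 6 arrays (y axis, log2 signal relative to the 75th percentile of the array's commonly detected probes), with 1 point per probe, a black bar at the median of each subunit and a dashed line at the median of all 17765 tested probes. The subunit medians lie between 3.40 and 4.67 on every array, with replicate 2 highest in both groups.

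The interquartile range of NUDT16 minus mock was -0.30 to 0.20 over the large subunit probes and -0.12 to 0.24 over those of the small subunit. Over all tested probes the median was -0.11 (-0.53 to 0.30). The small subunit's offset from all tested probes depends on the reference. Of all 17765 tested probes 11148 passed through the mock group alone, against 12 of the 172 members. Among probes detected on all 6 arrays, the median was 0.17 for the small subunit, -0.03 for the large and 0.16 for all 6582. Among these, 49 of 66 small subunit probes and 44 of 94 large subunit probes were above 0, against 59.3% of all 6582. With the replicate 2 pair left out, the medians of all tested member probes were 0.08 for the small and 0.04 for the large subunit.

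The members were less scattered than the array as a whole, but they were also brighter. Of the 160 detected on all 6 arrays, 152 had a mean level above 0, against 1554 of all 6582. Scatter was not compared at matched brightness, so a trait of the members and one of bright probes cannot be told apart here. Among probes detected on all 6 arrays, a difference of at least 1 on the log2 scale occurred in 0 of 160 member probes, against 6.76% of all. Within replicate 1 and within replicate 3, none of the 160 member probes detected everywhere differed by 1 or more, against 4.25% and 0.942% of all such probes. Within replicate 2 it was 34 of 160 (21.3%), against 44.9%. The members' spread was thus widest in 1 of the 3 same-numbered pairs.

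**Figure D2:**
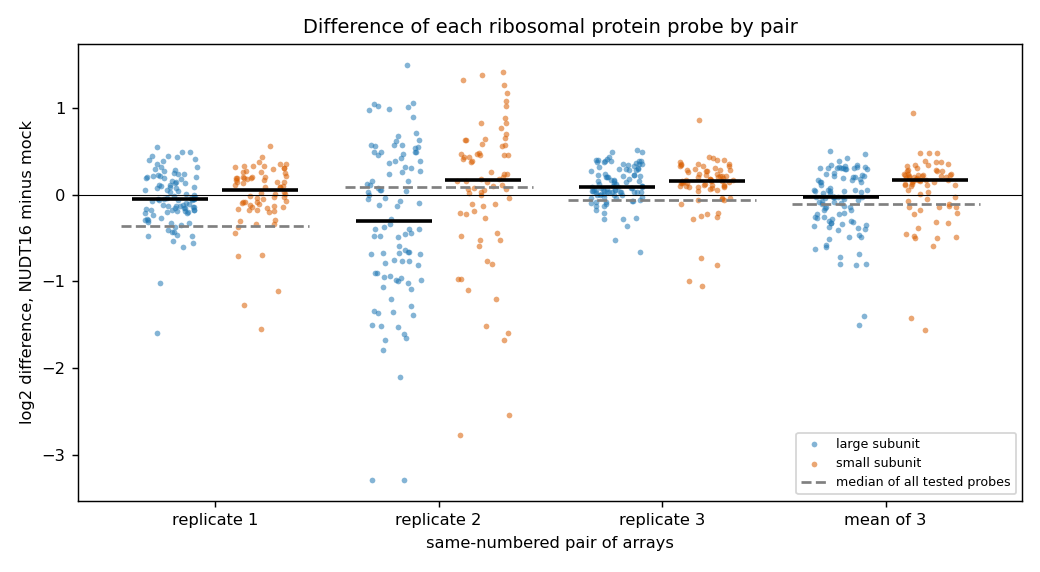
Log2 difference of each tested ribosomal protein probe, NUDT16 minus mock (y axis), within each same-numbered pair of arrays and as the mean of 3 (x axis), with black bars at the subunit medians and dashed lines at the median of all tested probes. In replicates 1 and 3 the points stay within about 1 of 0 apart from a few dim probes, and in replicate 2 they reach -3.29.

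The pair medians show the same. In the pairs of replicates 1, 2 and 3 the medians over every tested large subunit probe were -0.05, -0.31 and 0.09. Those of the small subunit were 0.05, 0.17 and 0.16, and those of all tested probes -0.36, 0.09 and -0.06. These sets include probes that passed through mock alone, 12 among the members and 11148 among all, so they are not alike. Of the probes detected on all 6 arrays, 28 of 66 small subunit probes (42.4%) and 18 of 94 large subunit probes (19.1%) were higher in all 3 pairs, against 27.0% of all. Lower in all 3 pairs were 2 and 8, against 19.3% of all. The 28 small subunit probes belong to 14 genes, among them RPSA, RPS2, RPS3, RPS9, RPS19 and RPS29.

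Groups that do not overlap were rare. No member probe had all 3 NUDT16 arrays above all 3 mock arrays, against 0.31% of all tested probes. The reverse held for 2 member probes, 1 of RPL22 and 1 of RPL6, against 0.281% of all. With 3 arrays against 3, an exact permutation test of 1 probe cannot give a two-sided p below 0.1.

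The ribosomal stalk, where RPLP0 anchors dimers of the acidic proteins RPLP1 and RPLP2 that recruit the translation factors, was nearly level between groups. RPLP0 (probe at base 952 of its transcript) had levels of 4.73, 4.10 and 4.07 in mock and 4.80, 4.37 and 4.18 with NUDT16. RPLP1 had 4.99, 5.19 and 4.43 in mock and 4.66, 5.66 and 4.61 with NUDT16, and RPLP2 had 4.89, 5.59 and 5.04 against 4.83, 6.15 and 4.97. The groups overlapped in all of them. The differences were 0.15 ± 0.58 (SE, n = 3 per group) for this RPLP0 probe, 0.11 ± 0.61 for RPLP1 and 0.14 ± 0.62 for RPLP2.

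RPL5 and RPL11, which carry 5S ribosomal RNA into the large subunit, had negative differences on each of their probes. RPL5 at base 666 had 3.05, 3.58 and 3.11 in mock and 2.62, 1.90 and 3.34 with NUDT16, a difference of -0.63 ± 0.62. The NUDT16 array of replicate 2 was the lowest and that of replicate 3 was above its mock partner. The 4 RPL5 probes shared this pattern: in the pair of replicate 2 they ranged from -2.10 to -1.02, and in that of replicate 3 from 0.23 to 0.39. RPL11 had 4.48, 5.30 and 4.55 in mock and 4.43, 4.81 and 4.46 with NUDT16, a difference of -0.21 ± 0.58 that was negative in all 3 pairs.

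Among the core proteins of the large subunit, RPL3, which lies close to the peptidyl transferase centre, was nearly level between groups. Its probe at base 885 read 4.59, 4.36 and 4.64 in mock and 4.44, 4.41 and 4.64 with NUDT16 (difference -0.03 ± 0.56). RPL4, whose extension lines the exit tunnel, read 2.92, 2.85 and 3.32 in mock and 2.45, 1.95 and 3.22 with NUDT16 (-0.49 ± 0.60), lower in each pair with overlapping groups. RPL8 differed by 0.17 ± 0.58 and RPL10A by 0.04 ± 0.59 and -0.03 ± 0.58 on its 2 probes.

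RPL10, a late-joining protein needed for the subunits to unite, had 3 tested probes with differences from 0.29 to 0.34. At base 639 its levels were 4.13, 4.32 and 3.85 in mock and 4.53, 4.82 and 3.85 with NUDT16. RPL7 had differences from -0.61 to -0.31 on 3 probes, and RPL13A, also known for a role outside the ribosome in silencing inflammatory transcripts, 0.05 to 0.22 on 3. Signs within RPL13A split by probe in replicate 2, where the probes at bases 143, 314 and 466 gave -0.39, 0.32 and 0.57.

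Proteins around the exit of the tunnel and on the surface showed both signs. RPL23A, a docking site for the signal recognition particle, ranged from -0.33 to -0.17 over 4 probes and RPL26, a regulator of p53 translation, from -0.14 to -0.09 over 3. RPL35A, one of the genes mutated in Diamond-Blackfan anaemia, differed by 0.02 ± 0.63 and RPL38, known for selective translation of Hox messages, by -0.05 ± 0.57. The small basic proteins RPL36A, RPL39 and RPL41 gave 0.30 and 0.34, -0.13 to -0.03, and 0.31. RPL41 read 5.34, 6.15 and 5.13 in mock and 5.21, 7.13 and 5.21 with NUDT16, so its difference came from the replicate 2 pair (0.99) while the other pairs gave -0.13 and 0.07.

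The large subunit probes with the smallest unadjusted p on the higher side belonged to RPL36, RPL35 and RPL37A. RPL36 read 3.78, 4.18 and 3.19 in mock and 4.08, 5.23 and 3.34 with NUDT16 (0.50 ± 0.66). RPL35 at base 33 read 2.74, 2.98 and 1.81 in mock and 3.13, 3.60 and 2.21 with NUDT16 (0.47 ± 0.64). RPL37A at base 72 read 4.82, 5.89 and 4.42 in mock and 5.02, 6.57 and 4.73 with NUDT16 (0.39 ± 0.70). All 3 were higher in each pair and overlapped between groups. Over the pairs of replicates 1 and 3 alone the differences were 0.22, 0.39 and 0.25.

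On the lower side the smallest unadjusted p belonged to probes of RPL22 and RPL15, of which 2 passed the filter through the mock group alone. RPL22, an RNA-binding protein that is dispensable for general translation and is recurrently lost in T-cell leukaemia, had 3 probes with widely different results. At base 1066 it read -2.31, -2.12 and -2.15 in mock and -3.33, -5.41 and -2.36 with NUDT16 (-1.51 ± 0.76, adjusted p = 0.999 in limma). These groups do not overlap, and the probe was not well above background on NUDT16 replicate 2. At base 749 it read 0.89, 2.68 and 1.41 in mock and 0.42, 0.89 and 1.28 with NUDT16 (-0.80 ± 0.65), lower in each pair. At base 357 the difference was -0.09 ± 0.62, and the array annotates that probe to a locus on chromosome 14, not to the RPL22 gene.

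RPL15, a protein of the large subunit core, split in the same manner. Its probe at base 302 read 3.95, 3.50 and 2.79 in mock and 4.27, 3.77 and 3.14 with NUDT16 (0.31 ± 0.62), higher in each pair. Its probe at base 1340 read -1.88, -1.49 and -1.39 in mock and -2.48, -4.79 and -1.67 with NUDT16 (-1.39 ± 0.78), lower in each pair and not well above background on NUDT16 replicate 2. RPL6 at base 1047, the other probe with groups apart, read 3.70, 4.13 and 3.67 in mock and 3.29, 3.06 and 3.67 with NUDT16. Its difference of -0.49 ± 0.57 rested on replicates 1 and 2, since the pair of replicate 3 differed by -0.002.

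In the small subunit, RPSA and RPS2 lie near where messenger RNA leaves or enters, and RPSA also serves as a laminin receptor. RPSA at base 724 read 4.30, 3.80 and 3.24 in mock and 4.47, 3.95 and 3.56 with NUDT16, higher in each pair by 0.17, 0.16 and 0.33 with overlapping groups. Its 5 probes gave differences from 0.12 to 0.27. RPS2 gave 0.12 to 0.48 on 6 probes, and RPS3, an entry-channel protein with a role in DNA repair, 0.34 ± 0.59.

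RPS19, the gene most often mutated in Diamond-Blackfan anaemia, was higher with NUDT16 in each pair on both of its probes. At base 392 it read 4.33, 4.94 and 3.92 in mock and 4.53, 5.83 and 4.28 with NUDT16 (0.48 ± 0.65), and at base 493 the difference was 0.48 ± 0.67. The groups overlapped on both. Other Diamond-Blackfan genes of the small subunit gave -0.21 and -0.14 (RPS7), 0.11 to 0.22 (RPS10), -0.13 (RPS24), and 0.15 and 0.20 (RPS26).

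RPS15A ranged from 0.17 to 0.28 over 4 probes, while RPS4X, the X-linked copy of a small subunit protein, gave -0.51 and -0.22. The RPS4X probe at -0.51 passed the filter through the mock group alone, so the size of its difference is not a measured one. RPS27A, made as a fusion with ubiquitin, differed by -0.03 ± 0.62. Its levels were 3.71, 4.82 and 3.72 in mock and 3.68, 4.64 and 3.85 with NUDT16. RPS29 gave 0.33 to 0.37 on 3 probes and -0.33 on its remaining probe, at base 630.

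RPS14, the protein whose loss underlies the anaemia of the 5q- syndrome, had the highest difference of the tested members and also a negative one. At base 21, next to the start shown above, it read 2.36, 3.99 and 2.07 in mock and 2.93, 5.40 and 2.93 with NUDT16 (0.95 ± 0.81, adjusted p = 0.999 in limma). It was higher by 0.57, 1.41 and 0.86 in the pairs, yet the groups overlapped because the mock array of replicate 2 lay above NUDT16 replicates 1 and 3. At base 430 the difference was 0.14 ± 0.60, and at base 961, where the probe was not well above background on NUDT16 replicate 2, it was -0.50 ± 0.61 and negative in each pair. The 3 probes (first 30 bases of each, as listed on the array) are shown because one gene name gave 3 answers.
RPS14 base 21: ctttcccgtgtggagtctggagacgacgtg
RPS14 base 430: tctgccgtgtgactggtgggatgaaggtaa
RPS14 base 961: gagattgttccacatcagtacataaagtac

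RPS6, the S6 kinase substrate, had a low value on one dim probe, which passed the filter through the mock group alone. At base 662 it read -5.32, -2.89 and -2.81 in mock and -6.43, -5.65 and -3.63 with NUDT16 (-1.56 ± 0.88, adjusted p = 0.999 in limma), lower in each pair with overlapping groups and not well above background on NUDT16 replicate 2. At base 717 it read 4.31, 4.56 and 4.25 in mock and 3.87, 4.29 and 4.52 with NUDT16 (-0.15 ± 0.57).

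RPS27, a zinc finger protein of the small subunit, had a dim probe of the same kind. At base 176 it read -3.99, -2.46 and -2.04 in mock and -4.69, -4.99 and -3.10 with NUDT16 (-1.43 ± 0.74), lower in each pair and not well above background on NUDT16 replicate 2. Its probes at bases 160 and 279 gave 0.34 ± 0.69 and 0.13 ± 0.67. The deviating probes of RPS6 and RPS27 are printed beside a probe of the same gene that did not deviate (first 30 bases of each).
RPS6 base 662: ggtgtgttcacagaggtcacaatcctgtac
RPS6 base 717: gaacaaattgcgaagagacgcagactttcc
RPS27 base 176: gaaagcactggacctcaacagttggaaaat
RPS27 base 160: atcaccacggtctttagccatgcacaaacg

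The copies of RPL10, RPL36A, RPS27, RPL39 and RPL3 that fall under the name rule had 1 probe each. RPL10L, a testis copy of RPL10 on an autosome, read 2.84, 2.55 and 2.30 in mock and 3.26, 2.93 and 2.43 with NUDT16 (0.31 ± 0.58), and was detected on all 6 arrays. Its probe shares 36 bases with a RPL10 probe at 33 identical positions, so its signal may include RPL10 and its level is uncertain. RPL36AL differed by 0.23 ± 0.75 and shares 24 of 25 overlapping bases with a RPL36A probe. RPS27L, a p53 target, differed by -0.15 ± 0.60. RPL39L was detected on no array, and RPL3L, the striated muscle form of RPL3, was detected on 4 arrays and was not tested. The RPL10 and RPL10L probes are shown over 30 shared bases, with capitals where they differ.
RPL10 base 578: attggCcaagtTatcatgtccatccgcacc
RPL10L base 455: attggTcaagtCatcatgtccatccgcacc

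Probes that carry one gene name did not always carry one sequence. Among 21 overlapping probe pairs of 14 genes (at least 25 shared bases), 20 differed by 1 to 5 bases in the overlap, and 1 pair, of RPL39, was identical. RPS10 gives an example, again with capitals at the differing bases.
RPS10 base 220: GgccatgcagtctctcAagtcccgGggctG
RPS10 base 204: AgccatgcagtctctcTagtcccgAggctA
These RPS10 probes differed by 0.17 and 0.22 in NUDT16 minus mock. The array places 1 of the 9 RPL21 probes on chromosome 10 rather than at the gene. Signal from processed pseudogenes and from the genes themselves cannot be told apart by such probes.

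The spread between probes of a gene was small for most genes. In the 41 genes with 2 or more probes detected on all 6 arrays, the range of the differences had a median of 0.11 and was under 0.25 in 33. It was widest in RPS14 (0.80) and above 1 in 0. With every tested probe counted there were 47 genes (27 large, 20 small subunit), and the range passed 1 in RPS27, RPL15, RPS14, RPS6 and RPL22. In each of these 5 the low end was a probe that passed through the mock group alone and was not well above background on NUDT16 replicate 2, so the size of the range there is not a measured one.

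**Figure D3:**
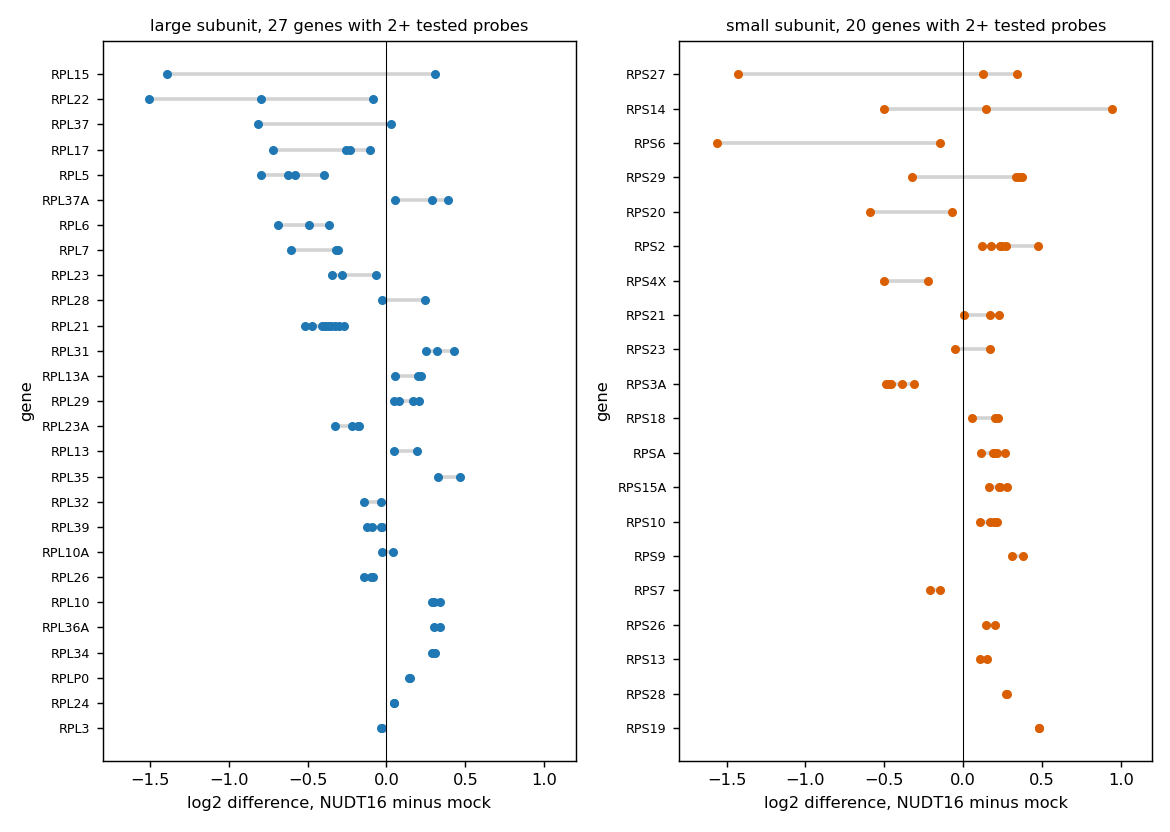
Log2 difference, NUDT16 minus mock (x axis), of every tested probe (points) of the 47 genes with 2 or more tested probes (y axis, ordered by their range), with the large subunit on the left and the small on the right. Grey bars join the probes of a gene. In 5 genes they span more than 1, and there the lowest point is a probe that passed the filter through the mock group alone.

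Brightness was compared among probes detected on all 6 arrays only. The 152 member probes with a mean level above 0 had a median difference of 0.11, against 0.14 over all 1554 such probes. By pair they gave 0.00, 0.06 and 0.15. The 8 with a mean level below 0 had a median of -0.19, with 6 of them negative, against 0.17 over all 5028. The 12 member probes that passed through mock alone were all below 0 in mean level and are not summarised.

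In RPL21 and RPS3A all probes had one sign within the pairs of replicates 2 and 3, and that sign differed between these pairs. RPL21 had 9 probes, all negative in replicate 2 (-1.61 to -0.94) and all positive in replicate 3 (0.21 to 0.49). RPS3A had 5 probes, from -1.67 to -0.97 in replicate 2 and from 0.06 to 0.17 in replicate 3. In replicate 1 they ranged from -0.08 to 0.10. Some of these probes overlap, by 36 and 50 bases in RPL21 and by 39 to 58 in RPS3A, so they are not separate readings. Of the 41 genes with 2 or more probes detected on all arrays, all probes had one sign in 29 in replicate 1, 31 in replicate 2 and 30 in replicate 3. The median range between probes was 0.14, 0.33 and 0.15. These counts were not made for genes outside the members.

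In RPS2 and RPS18 the difference varied with the position of the probe along the transcript. The 3 RPS2 probes from base 866 to 881, which overlap by 45 to 53 bases, gave 1.26 to 1.38 in replicate 2, against 0.06 and 0.08 at bases 245 and 388. In replicates 1 and 3 the same far probes were negative (-0.37 to -0.29 and -0.29 to -0.22) and the near ones positive. A dim probe at base 609 of another annotated transcript gave 1.03 in replicate 2, and 0.30 and 0.10 in replicates 1 and 3. The far probes were also brighter (mean levels 5.62 to 6.27, against 3.37 and 4.91), so position and brightness cannot be told apart here. RPS18 gave -0.01, 0.63 and 1.08 at bases 76, 292 and 482 in replicate 2, and -0.02, -0.09 and -0.18 in replicate 1.

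**Figure D4:**
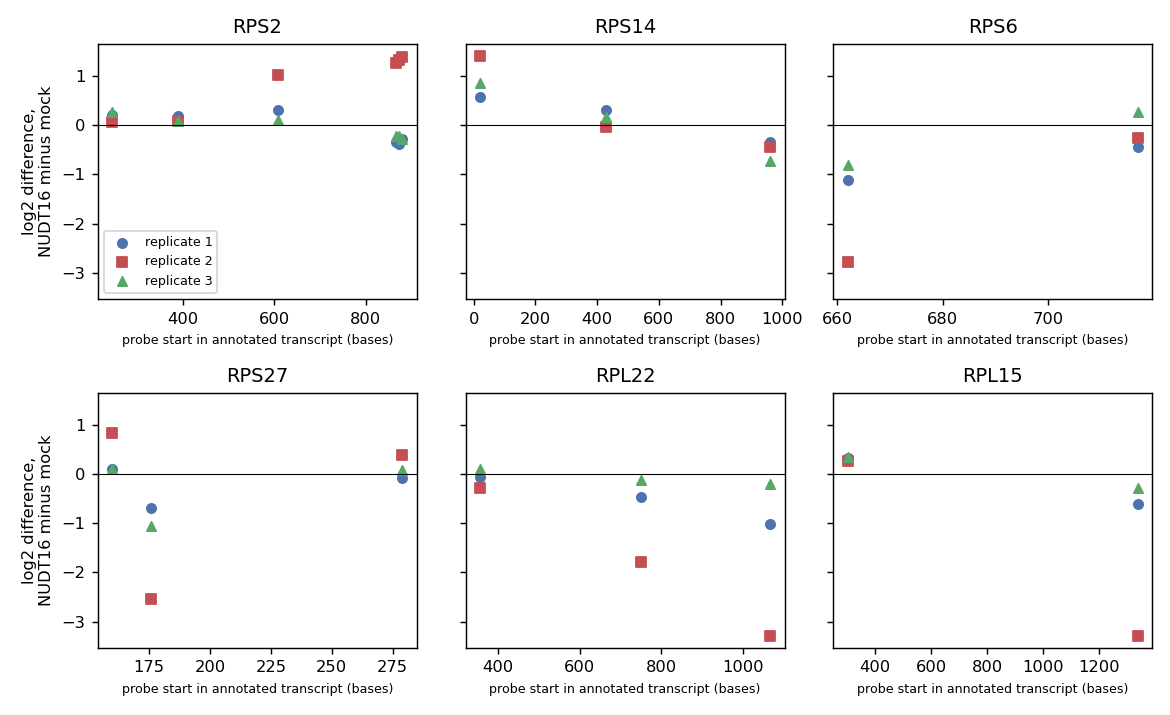
Log2 difference, NUDT16 minus mock (y axis), of the tested probes of 6 genes against the position of the probe in its annotated transcript in bases (x axis), with 1 symbol per same-numbered pair of arrays. RPS2 probes from base 866 on are above 1 in replicate 2 and below 0 in replicates 1 and 3, and in RPL22 and RPL15 the farthest probe is lowest in each pair.

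Over all 34 genes with probes at least 60 bases apart on one transcript, the far probe was above the near one in 4 genes in replicate 1, 20 in replicate 2 and 14 in replicate 3. The median of far minus near was -0.11, 0.11 and -0.03. The 9 tested probes with an annotated position within the first 100 bases, from 8 genes, had a median difference of 0.33, with 6 of them positive. Annotated position is not always true position. By the array's coordinates RPL7 at base 31 lies downstream of that gene's probe at base 740, and RPL21 at base 48 is on chromosome 10. Both also served as near probes, as did the RPL22 probe placed on chromosome 14, so these counts do not separate transcript ends cleanly. RNA integrity was not measured in these data, and its part in these position patterns was not tested.

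Members were also divided by their annotated start. The 102 tested probes of the 46 members with such a start had a median difference of 0.12 (0.04, 0.05 and 0.16 by pair). The 35 probes of the 19 members in the table without it had -0.03 (-0.13, 0.04 and 0.03 by pair). The difference between these medians was not tested.

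Related genes outside the name rule give a frame for these values. FAU, the ubiquitin-like fusion that supplies a small subunit protein, read 3.83, 4.16 and 3.24 in mock and 4.15, 4.27 and 3.43 with NUDT16. Its difference was 0.21 ± 0.60, positive in each pair with overlapping groups. The paralogues RPL22L1, RPL26L1 and RPL7L1 had -0.24, -0.42 and -0.48. No probe of these genes was called by limma.

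Other messages known for a TOP start lay lower than the ribosomal protein genes. Their 32 tested probes, from 18 genes, had a median difference of -0.61, 28 were negative, and 16 were negative in all 3 pairs. By pair the medians were -0.58, -1.21 and -0.12. Of all 17765 tested probes 10089 were negative, and 27.5% were negative in all 3 pairs. Among all probes detected on all 6 arrays that last share was 19.3%. EEF1A1, NPM1, EIF4B and HNRNPA1 had several probes each, so the 32 are not separate readings. NPM1, a nucleolar chaperone of ribosome assembly, gave -1.27 to -0.62 on 4 probes, and EIF4B, a helicase cofactor of initiation, -1.36 to -0.85 on 3. The EIF4B probe at -1.36 passed the filter through the mock group alone. It was not well above background on NUDT16 replicate 2, so the size of its difference is not a measured one. EEF1A1, the factor that delivers aminoacyl-tRNA, gave -0.63 to -0.23 on 6, while EIF3F gave 0.31. Of these 32 probes 0 were called by limma, and 0 had an unadjusted p under 0.05.

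The mitochondrial ribosomal protein genes, which encode the proteins of the separate ribosome inside mitochondria, had a median of -0.19 over 91 tested probes, with -0.13, -0.51 and 0.12 by pair, and of -0.06 over the 69 detected on all 6 arrays. Of these, 0 were called by limma, and 0 had an unadjusted p under 0.05. Over the 91 tested probes the replicate 2 median was lower than those of replicates 1 and 3. It includes probes that were not well above background on NUDT16 replicate 2, where 69 were detected, so its size is not a measured one. Whether any list differed from the ribosomal protein genes was not tested.

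**Figure D5:**
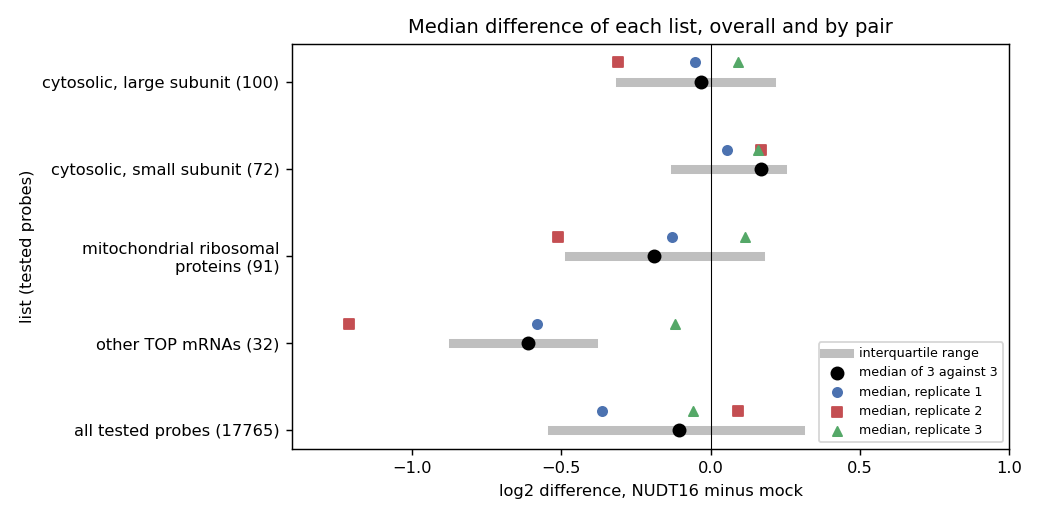
Median log2 difference, NUDT16 minus mock (x axis), of 5 lists of probes (y axis, number of tested probes in brackets), with a black point for the median of 3 against 3, a grey bar for the interquartile range and coloured symbols for the median within each same-numbered pair. The other TOP messages lie at -0.61, the large and small subunits at -0.03 and 0.17, and all tested probes at -0.11.

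Replicates 1 and 3, which detected similar shares of probes, were also fitted without replicate 2 and with the replicate block. This fit gave the member probes a common standard error of 0.30, bright and dim alike. Its p-values therefore rank the size of a difference and do not measure a probe's own spread. There 601 of all probes were called lower (3.38%) and 12 higher by limma, and 3 member probes were called lower and 0 higher. That balance moves with the scaling: with each array shifted by the median of the tested probes, a setting chosen after seeing the data, 437 of all probes were called lower and 108 higher, and among members 1 lower and 1 higher. The 3 members were RPS6 at base 662 (-0.96, adjusted p = 0.0438), RPL37 at base 1510 (-0.98, adjusted p = 0.0377) and RPS20 at base 578 (-1.27, adjusted p = 0.0035). Each passed the filter through the mock group alone, which favours a lower value with NUDT16, and RPL37 at base 1510 was detected on 2 of the 3 NUDT16 arrays. RPS20 at base 578 was not well above background on NUDT16 replicates 1 and 2 and read -7.75, -6.58 and -5.33 in mock and -9.30, -5.81 and -6.32 with NUDT16, so the pair of replicate 2 had the opposite sign. Other probes of these genes gave -0.15 (RPS6), 0.03 (RPL37) and -0.07 (RPS20) over all 3 replicates.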

How the data were processed

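The 6 arrays of cap-immunoprecipitated MOLT-4 RNA comprised 3 mock and 3 NUDT16 samples, grouped by their titles. Agilent design 039494 (hg19) was read with Feature Extraction 10.7.3.1, per the file headers, and the deposited intensity is background subtracted and not normalized between arrays. The authors' deposited value table is on a log2 scale whose making is not given in the sources used here, and it served as an alternative.

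Control and outlier spots were dropped, spots of a probe were averaged, and log2 intensity was shifted per array by the 75th percentile of its commonly detected probes (those well above background on all 6 arrays). That reference was used because under 50% of spots were detected on 4 of the arrays, and on NUDT16 replicate 2 the percentile over all probes is a background value. Differences were tested with limma 3.58.1 (R 4.3.3, lmFit and eBayes, two-sided) over all 17765 tested probes with Benjamini-Hochberg adjustment, and the code was tested on simulated data. The number of arrays limits the precision.

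Members and lists were chosen with earlier results of these data known. Genes were named by role (stalk, 5S particle, core, disease genes, paralogues), together with the 3 probes per subunit and direction with the smallest unadjusted p, genes whose probes span more than 1, and genes with no detected probe. RPL6, RPL21, RPS3A, RPS18, RPL37 and RPS20, and the genes listed as higher in all pairs or as related genes, were named after their values were seen or from the other lists.

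Same-numbered arrays share a slide and a scan (3 of each). Deviations of such arrays from their group's mean had correlations of 0.84, 0.39 and 0.77 over 17765 probes, so the numbers pair the arrays, while slide, scan and preparation cannot be told apart. Alternatives were other scalings (all-probe 75th percentile, median, none, quantile), normexp with an offset of 50, the replicate block, no filter or one requiring detection everywhere, an intensity trend with a robust prior, the authors' table, each array left out, and replicates 1 and 3 alone. Starts came from RefSeq (GRCh38.p14), where 65 of 82 genes matched. No column of values was left unmapped. The values of some genes on these lists are not reported here.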

Additional observations from a re-analysis of the deposited data

How the results depend on the processing

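The call of 1 among all probes became 0 with no scaling, normexp correction, no filter and the authors' value table, with 1, 1, 160 and 10 probes at an unadjusted p under 0.05. A filter on all 6 arrays also gave 0, with 2 such probes. It removes the NUDT16P1 probe, detected on 3 arrays, before testing, so that loss says nothing about the call. Leaving out an array in turn gave 0 to 1 (0 without mock replicate 2), and the replicate block, which uses the pairing, gave 1 and changed no call. Replicates 1 and 3 alone gave 613 calls, 3 of them ribosomal protein probes, in a fit whose member probes share a common standard error. With each array shifted by the median of the tested probes, a setting chosen after seeing the data, replicates 1 and 3 gave 545 (437 lower, 108 higher) and 2. Of these 2, RPS14 at base 21 was higher (0.90, limma adjusted p = 0.0259) and RPS20 at base 578 lower. The 0 calls among members held in every other setting.

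The large subunit median was -0.71 with the median shift and -1.03 with no scaling, and that of the small subunit -0.51 and -0.83. The median of all tested probes was then -0.78 and -1.10, so both subunits kept their distance to it (0.07 and 0.27). With normexp that distance was -0.57 and -0.39. With an array left out the large subunit median ranged from -0.24 to 0.21, highest without mock replicate 2, and the small from -0.15 to 0.35, both lowest without NUDT16 replicate 2. With the replicate 2 pair left out they were 0.04 and 0.08.

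The median shift moves every difference by -0.68, which leaves 1 of 95 positive member probes positive. Its values were, among the probes named by smallest p, RPL35 -0.21, RPL36 -0.18, RPL37A -0.28, RPS19 -0.20 and RPS2 at base 609 -0.20. No scaling, also 1 constant for all, gave RPL35 -0.53, RPL36 -0.50, RPL37A -0.60, RPS19 -0.52, RPS2 -0.52 and RPS14 at base 21 -0.051. Signs also turned with normexp for RPS14 at base 961 (0.22), and without NUDT16 replicate 2 for RPL36 and RPL37A, which ranged from -0.0058 to 0.94 and from -0.17 to 0.82 with an array left out. Leaving out NUDT16 replicate 2 alone keeps its mock partner, the highest mock array for most members, and with the whole pair left out RPL36 and RPL37A gave 0.22 and 0.25. For normexp the cause was not tested. Dim probes and the 14.6% of spots detected on NUDT16 replicate 2 limit what small differences can show.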
